A study of Mus musculus with 8 samples.

Results

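Solute carriers are membrane proteins that move sugars, amino acids, nucleosides, metals, ions, lactate, vitamins and metabolites across the plasma membrane and the membranes of organelles. Their gene symbols begin with Slc followed by a family number, and members of one family usually share a class of substrate. In brain phagocytes and leukocytes they set which fuels enter a cell, how glutamate is cleared, how lactate leaves, and how the contents of lysosomes and mitochondria are exchanged with the cytosol. The genes described here were all rows whose names begin with Slc and a digit and whose unique molecular identifiers (UMIs, each a tagged transcript) summed to at least 2000 over the 8 libraries. Slc7a11, Slc2a1, Slc2a5, Slc40a1, Slc11a1, Slc7a5 and Slc3a2 were left out by name. This gave 152 genes out of 325 Slc genes and 20340 genes in all. The UMI sum chose the members and is not a result. Just inside the threshold were Slc25a40 with 2037 UMIs and Slc26a11 with 2023, and just outside were Slc39a4 with 1842 and Slc25a15 with 1780.

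The study placed male C57BL/6J mice of 8 to 9 weeks under a 60 min occlusion of the middle cerebral artery by an intraluminal suture, followed by reperfusion, and profiled live cells of each brain hemisphere by droplet 3′ single-cell RNA sequencing. The 8 libraries were the ipsilateral (occluded) and contralateral hemispheres of mice labelled Prdx1-/- and of WT mice, at 48 h and at 24 h, with 1 library for each combination. Prdx1 encodes peroxiredoxin 1, a cytosolic peroxidase. Cells were freed of myelin on a Percoll gradient and sorted for viability.

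The number of mice behind a library is not given in the sources used here, and there was no replicate library, so p-values measure the spread between libraries that differ in the other factors. In microglia, Prdx1 stood at 5.5 CPM (UMIs of the gene per 1000000 UMIs of the class in a library) in the ipsilateral and 6.0 CPM in the contralateral library labelled Prdx1-/- at 48 h, against 584.8 and 339.5 CPM in the WT libraries at that time. Those of 24 h with the same label still held 407.8 CPM ipsilaterally and 89.2 CPM contralaterally, against 495.2 and 262.7 CPM in WT. The 24 h libraries labelled Prdx1-/- thus carried Prdx1 transcripts against their label, and all 4 of that genotype are called libraries labelled Prdx1-/- throughout.

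Each cell was assigned to a class by marker genes, none of which is a solute carrier, and UMIs were summed over the cells of a class in each library. This gave 20809 microglia (481 to 4621 per library), 7183 monocytes or macrophages (80 to 2591) and 5384 neutrophils (43 to 1807). The libraries held 4019 to 5441 cells used, with median depths of 7141 to 13386.5 UMIs per cell, and cells of different libraries shared 203 barcodes. Microglia supplied 50.3% of the UMIs of the cells used, monocytes and macrophages 29.1% and neutrophils 8.07%, so the UMI sum that chose the members gives most weight to microglia.

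By substrate, the 152 genes comprised 31 mitochondrial carriers, 22 carriers of nucleosides and nucleotide sugars, 21 of amino acids and peptides, 21 of inorganic ions, 19 of zinc, copper and iron, 13 of monocarboxylates and organic ions, 11 of sugars and sugar phosphates, and 11 of lipids, vitamins, heme and cofactors. The other 3 (Slc9a3r1, Slc7a6os and Slc4a1ap) bear an Slc symbol but encode no carrier. Slc5a6, a vitamin carrier, was placed with the sugar carriers by its family and is counted there throughout. Other members were also placed by family. Examples are Slc43a3 (purine nucleobases) and Slc6a8 (creatine) among the amino acid carriers, and Slc16a10 (aromatic amino acids) among the monocarboxylate carriers. Group counts below are therefore not strictly counts by substrate. Levels below are CPM of a class's own UMI total unless another scale is named, and they are compared between libraries and cell classes, never between genes.

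Promoters are shown for 3 members taken up in the hemisphere comparison because each carries a motif of a stress response: Slc16a3 (MCT4, the lactate exporter), Slc25a33 (a mitochondrial pyrimidine nucleotide carrier) and Slc30a1 (ZnT1, the zinc exporter of the plasma membrane). Each runs in the sense of the gene, 5′ to 3′, over 300 bases around the RefSeq start site in the GRCm38.p6 assembly. Slc16a3 lies at chr11:120948817-120949116 on the plus strand, Slc25a33 at chr4:149774218-149774517 on the minus strand and Slc30a1 at chr1:191906531-191906830 on the plus strand. Capitals mark matches, on either strand, to the hypoxia response core ACGTG, the antioxidant response core TGACNNNGC and the metal response cores TGCACNC and TGCGCNC.
Slc16a3: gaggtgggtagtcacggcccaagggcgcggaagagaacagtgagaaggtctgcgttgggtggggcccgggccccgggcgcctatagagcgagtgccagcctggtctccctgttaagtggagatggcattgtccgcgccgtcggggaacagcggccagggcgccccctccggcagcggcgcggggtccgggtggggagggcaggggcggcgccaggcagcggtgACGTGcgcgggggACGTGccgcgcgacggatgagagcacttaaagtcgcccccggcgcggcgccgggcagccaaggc
Slc25a33: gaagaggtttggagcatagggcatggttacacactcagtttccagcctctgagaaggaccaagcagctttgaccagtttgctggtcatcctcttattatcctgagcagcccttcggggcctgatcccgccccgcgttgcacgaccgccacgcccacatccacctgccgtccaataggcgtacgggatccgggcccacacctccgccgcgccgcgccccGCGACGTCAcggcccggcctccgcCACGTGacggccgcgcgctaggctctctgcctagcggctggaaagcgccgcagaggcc
Slc30a1: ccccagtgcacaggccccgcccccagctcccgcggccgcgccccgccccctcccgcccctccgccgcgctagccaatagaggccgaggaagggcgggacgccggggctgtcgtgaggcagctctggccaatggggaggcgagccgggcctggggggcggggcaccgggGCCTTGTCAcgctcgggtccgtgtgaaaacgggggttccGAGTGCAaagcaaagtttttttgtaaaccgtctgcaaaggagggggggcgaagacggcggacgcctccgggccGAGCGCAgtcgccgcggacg
The Slc16a3 window held 2 ACGTG matches on the plus strand. The Slc25a33 window held CACGTG, a palindrome that matches ACGTG on both strands, and 1 antioxidant core. The Slc30a1 window held 1 antioxidant core and 1 match to each metal response core, all on the reverse strand, and no ACGTG. Such short words are common: ACGTG occurred in 36.2% of the 116 members with a RefSeq window and in 19.6% of all 32851 windows, TGACNNNGC in 25.9% and 12.4%, TGCACNC in 21.6% and 12.6%, and TGCGCNC in 29.3% and 15.4%. The amino acid response word TGATGNAA occurred in 2.6% of member windows and in 4.0% of all windows. Members were chosen by UMI sum and the other windows were not, so a gap between these shares is not read as particular to carriers. A match describes letters only.

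The first question was how carriers differed in microglia between the occluded and the opposite hemisphere. In ipsilateral microglia the glutamine carrier Slc1a5 and the zinc and iron carrier Slc39a14 were among the members that rose most, and the glutamate carrier Slc1a3 and the lysosomal carrier Slc46a3 among those that fell most. Each group of carriers held members that rose and members that fell. Of the 152 members, 72 passed an adjusted p under 0.05 by quasi-likelihood testing in edgeR, with p adjusted over 13699 genes after Benjamini and Hochberg, 38 higher and 34 lower. Among all genes tested 42.7% passed (21.8% higher and 20.9% lower), so a large count of changed carriers is what the whole transcriptome showed as well. The median log2 fold change was 0.01 over members and 0.00 over all genes. Of the 72, 64 had the same sign in all 4 pairs of hemispheres. The same libraries gave the calls, so that agreement is in part built in, and the share over all called genes is not given. A change of level in each cell and a change in the mix of microglial states cannot be told apart in these sums.

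Ipsilateral microglia stood apart in their markers as well. The summed level of the microglial markers was 10210 to 12350 CPM in ipsilateral microglia and 16240 to 24600 CPM in contralateral microglia. Neutrophil markers summed to 296.3 to 1232 CPM in ipsilateral microglia and 22.9 to 379.9 CPM in contralateral microglia, against 160800 to 269500 CPM in ipsilateral neutrophils. Monocyte markers summed to 179.3 to 499.6 CPM in ipsilateral microglia and 59.35 to 202.4 CPM in contralateral microglia. No marker of these lists was at 0 in all libraries. The part of other cells' RNA in the results below was not tested.

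**Figure D1:**
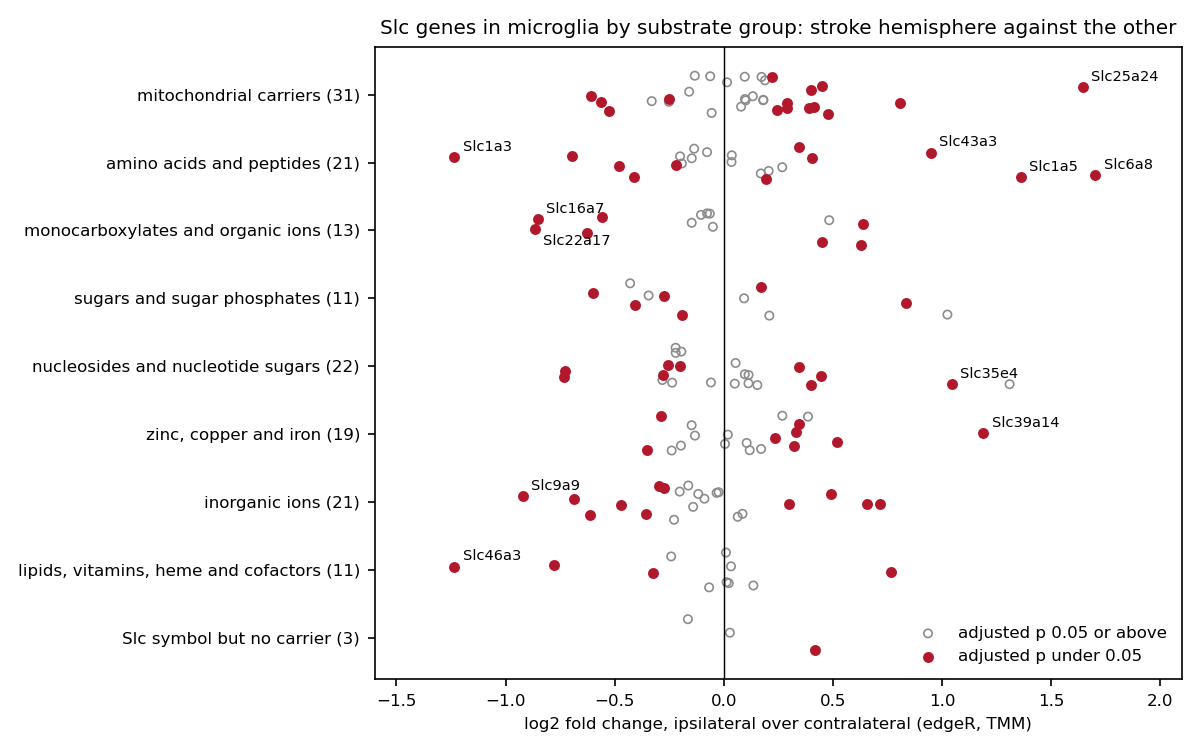
Log2 fold change of the 152 members between ipsilateral and contralateral microglia, one point per gene and one row per substrate group, with filled red points for members at an adjusted p under 0.05 in edgeR's quasi-likelihood test. Called members lie on both sides of 0 in each carrier group, and the mitochondrial carriers have 11 higher and 4 lower.

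Among the 21 amino acid and peptide carriers, 6 were higher and 5 lower. Slc1a5, or ASCT2, which carries glutamine and other small neutral amino acids, had 42.4, 20.55, 26.1 and 19.2 CPM in ipsilateral microglia, against 14.55, 10.1, 11.6 and 8.31 CPM in contralateral microglia. Here and below, 4 values of one hemisphere are given in the order 48 h labelled Prdx1-/-, 48 h WT, 24 h labelled Prdx1-/- and 24 h WT. All 4 ipsilateral libraries lay above all 4 contralateral ones, with a log2 change of 1.36 (SE 0.10, adjusted p = 3.96e-05, edgeR). Slc43a3, a purine nucleobase carrier of a family named for amino acids, had 21.45, 29.65, 3.32 and 6.49 CPM in ipsilateral microglia, against 11.5, 14.2, 3.095 and 2.81 CPM in contralateral microglia. It was higher ipsilaterally within each pair (log2 fold change 0.95, SE 0.16, adjusted p = 0.00145), but the groups overlap because the 48 h libraries stood above the 24 h ones. Slc7a1, the arginine carrier CAT1, rose less, with a log2 change of 0.40 (SE 0.10, adjusted p = 0.0116).

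On the falling side stood Slc1a3, or GLAST, a sodium-coupled glutamate carrier best known from astrocytes. It had 37.6, 73.1, 51.6 and 58.0 CPM in ipsilateral microglia, against 106, 152, 141 and 158 CPM in contralateral microglia. The groups did not overlap, and the log2 fold change was -1.24 (SE 0.15, adjusted p = 0.000554, edgeR). Slc38a9, a lysosomal amino acid carrier that signals arginine to mTORC1, fell by 0.69 on the log2 scale, Slc36a1, a proton-coupled amino acid carrier of lysosomes, fell by 0.48, and Slc7a7, the light chain of the y+L arginine exchanger, fell by 0.41. Slc38a2 (SNAT2), which carries small neutral amino acids, did not pass (log2 difference -0.14, adjusted p = 0.173). Slc15a3, a lysosomal peptide and histidine carrier, did not pass either (log2 difference -0.15, adjusted p = 0.361).

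Slc6a8, the creatine carrier, had the largest fold change of the 72, but with a mean below 10 CPM it is named here after its values were seen. It had 9.85, 8.29, 6.92 and 11.3 CPM in ipsilateral microglia, against 3.03, 2.545, 3.19 and 3.22 CPM in contralateral microglia. The groups did not overlap (log2 fold change 1.70, SE 0.16, adjusted p = 9.23e-05, edgeR).

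Of the 19 zinc, copper and iron carriers, 6 were higher and 2 lower. Slc39a14, or ZIP14, imports zinc, iron and manganese. It had 102, 57.8, 110.5 and 90.15 CPM in ipsilateral microglia, against 68.8, 28.8, 47.7 and 31.8 CPM in contralateral microglia. Each ipsilateral library was above its own contralateral partner, but the 48 h WT ipsilateral library lay below the 48 h contralateral library labelled Prdx1-/-, and the log2 fold change was 1.19 (SE 0.18, adjusted p = 0.00263, edgeR). Slc30a1, whose product exports zinc, had 14.8, 14.2, 16.04 and 17.2 CPM in ipsilateral microglia, against 11.9, 9.09, 11.6 and 14.7 CPM in contralateral microglia. It was higher in every pair, with ranges that overlap between 14.2 and 14.7 CPM (log2 fold change 0.52, SE 0.11, adjusted p = 0.0037). The other 4 that rose were Slc31a1, the copper importer CTR1, at 0.34, Slc39a6 at 0.33, Slc39a1 at 0.32 and Slc39a11 at 0.23 on the log2 scale. Slc30a4 fell by 0.35 and Slc39a9 by 0.29.

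The 13 carriers of monocarboxylates and organic ions split into 3 higher and 4 lower. Slc16a3 had 98.6, 73.7, 99.6 and 84.1 CPM in ipsilateral microglia, against 69.3, 65.95, 58.3 and 55.2 CPM in contralateral microglia. The groups did not overlap, with a log2 change of 0.63 (SE 0.10, adjusted p = 0.00144, edgeR). Its relatives moved apart. Slc16a1 (MCT1) rose by 0.45 (SE 0.08, adjusted p = 0.00163) and the aromatic amino acid carrier Slc16a10 by 0.64 (SE 0.07, adjusted p = 0.000183). Slc16a7, or MCT2, the monocarboxylate carrier with the highest affinity for lactate and pyruvate, had 8.90, 13.7, 11.0 and 9.70 CPM in ipsilateral microglia, against 16.7, 21.6, 19.9 and 26.4 CPM in contralateral microglia. These groups did not overlap either, and the log2 fold change was -0.85 (SE 0.14, adjusted p = 0.0016).

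Slc22a17, a receptor for lipocalin-2 that belongs to the organic cation carrier family, had 20.9, 16.3, 12.9 and 16.2 CPM in ipsilateral microglia, against 37.6, 30.1, 28.3 and 33.4 CPM in contralateral microglia. All 4 ipsilateral values were below all 4 contralateral ones (log2 fold change -0.86, SE 0.10, adjusted p = 0.000284, edgeR). Slc13a3, a sodium-coupled dicarboxylate carrier, fell by 0.63, and Slc17a5, or sialin, which exports sialic acid out of lysosomes, by 0.56.

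Of the 11 sugar carriers, 2 were higher and 4 lower. Slc2a6 (GLUT6), a glucose carrier family member found on intracellular membranes, had 25.4, 22.9, 7.80 and 7.13 CPM in ipsilateral microglia, against 16.1, 17.6, 3.94 and 3.75 CPM in contralateral microglia. It was higher in every pair (log2 fold change 0.83, SE 0.13, adjusted p = 0.00105, edgeR), with the 48 h contralateral libraries above the 24 h ipsilateral ones. Slc37a2 rose by 0.17. Slc2a8 (GLUT8) fell by 0.60 (SE 0.09, adjusted p = 0.000716), Slc50a1 by 0.40, the glucose 6-phosphate translocase Slc37a4 by 0.28 and Slc45a4 by 0.19. Slc2a3 (GLUT3) did not pass, at a log2 difference of -0.43 (adjusted p = 0.0733).

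**Figure D2:**
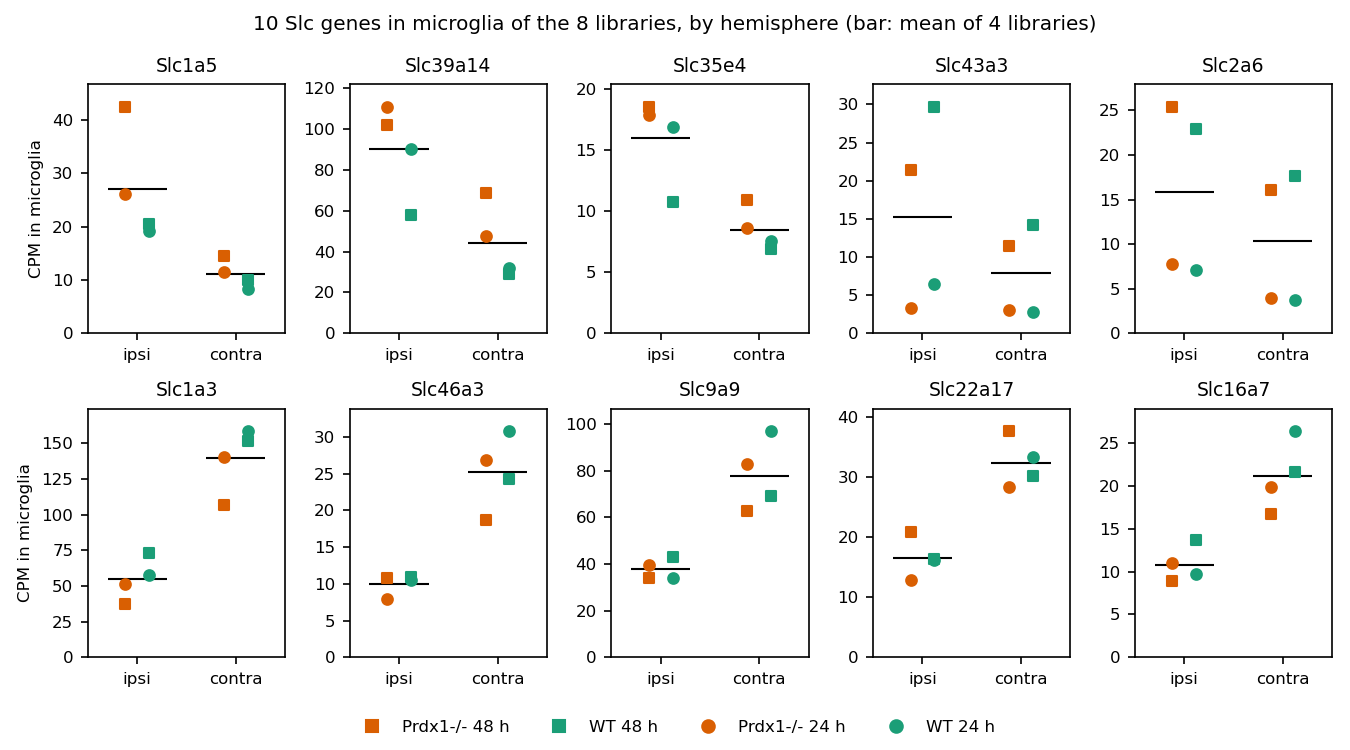
CPM in microglia for 10 members, one point per library with the ipsilateral hemisphere on the left of each panel and the contralateral on the right, and a bar at the mean of 4 libraries. Slc1a5 and Slc35e4 are shown with members that fell, among them Slc1a3 at 37.6 to 73.1 CPM ipsilaterally and 106 to 158 CPM contralaterally.

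Mitochondrial carriers were the largest group and had 11 of 31 higher and 4 lower, with a median log2 fold change of 0.13. Their summed share of microglial UMIs was 0.186% to 0.2005% in ipsilateral libraries and 0.177% to 0.186% in contralateral libraries. Slc25a33 had 38.7, 32.0, 39.0 and 32.65 CPM in ipsilateral microglia, against 19.9, 22.8, 24.0 and 20.9 CPM in contralateral microglia. The groups were well apart (log2 fold change 0.81, SE 0.10, adjusted p = 0.000373, edgeR). Slc25a3, the phosphate carrier that feeds ATP synthase, had 502, 484, 488 and 457 CPM in ipsilateral microglia, against 398, 412, 372 and 348 CPM in contralateral microglia. It too did not overlap (log2 fold change 0.45, SE 0.09, adjusted p = 0.00337).

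Slc25a39, needed for mitochondrial glutathione import, rose by 0.41 and the dicarboxylate carrier Slc25a10 by 0.40. The adenine nucleotide exchanger Slc25a4 rose by 0.22, and its relative Slc25a5 did not pass (log2 difference 0.18, adjusted p = 0.159, edgeR). The 4 that fell were Slc25a36, which carries pyrimidine nucleotides as Slc25a33 does, by 0.61, Slc25a23 by 0.56, Slc25a45 by 0.52, and mitoferrin 1 (Slc25a37), the iron importer of erythroid mitochondria, by 0.25. Slc25a24, an ATP-Mg and phosphate carrier, rose by 1.65 (SE 0.37, adjusted p = 0.00655) on levels of at most 1.63 CPM, and it too is named after its values were seen.

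Nucleoside and nucleotide sugar carriers had 4 of 22 higher and 5 lower. Slc35e4, an orphan of the nucleotide sugar family, had 18.5, 10.7, 17.8 and 16.9 CPM in ipsilateral microglia, against 10.9, 6.86, 8.59 and 7.53 CPM in contralateral microglia. Only the 48 h WT ipsilateral library fell within the contralateral range (log2 fold change 1.04, SE 0.14, adjusted p = 0.000409, edgeR). Slc29a3, or ENT3, a nucleoside carrier of lysosomes, had 128, 132, 157 and 158 CPM in ipsilateral microglia, against 233, 241, 264.5 and 290.3 CPM in contralateral microglia. These groups were far apart (log2 fold change -0.73, SE 0.07, adjusted p = 0.000121). The plasma membrane nucleoside carrier Slc29a1 (ENT1) fell by 0.20. The summed share of this group was 0.0796% to 0.0879% of UMIs in ipsilateral microglia and 0.0938% to 0.106% in contralateral microglia.

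Inorganic ion carriers had 4 of 21 higher and 7 lower. Slc20a1, a sodium-coupled phosphate carrier, had 70.4, 44.8, 40.9 and 37.05 CPM in ipsilateral microglia, against 36.15, 29.8, 27.8 and 29.9 CPM in contralateral microglia. The 4 ipsilateral values were all above the contralateral ones (log2 fold change 0.72, SE 0.10, adjusted p = 0.000728, edgeR). Slc9a9 (NHE9), an endosomal sodium and proton exchanger, had 34.1, 43.2, 39.6 and 34.0 CPM in ipsilateral microglia, against 62.6, 69.2, 82.6 and 96.9 CPM in contralateral microglia. That is a fall with no overlap (log2 fold change -0.92, SE 0.13, adjusted p = 0.000844). The cation chloride cotransporters moved in both directions: Slc12a7 (KCC4) rose by 0.66 and Slc12a4 (KCC1) by 0.49, while Slc12a2 (NKCC1) fell by 0.69 and Slc12a9 by 0.29.

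Lipid, vitamin, heme and cofactor carriers had 1 of 11 higher and 3 lower. Slc46a3, a lysosomal carrier, had 10.8, 11.0, 7.92 and 10.5 CPM in ipsilateral microglia, against 18.7, 24.3, 26.8 and 30.8 CPM in contralateral microglia. All 4 pairs fell, with no overlap (log2 fold change -1.23, SE 0.13, adjusted p = 0.000174, edgeR). Slc44a2, a choline carrier, fell by 0.78 (SE 0.10, adjusted p = 0.000371), and Slc46a1, the proton-coupled folate carrier, by 0.32. Slc48a1 (HRG1), which moves heme out of lysosomes, had 30.5, 32.7, 30.4 and 55.3 CPM in ipsilateral microglia, against 24.95, 22.9, 22.6 and 22.7 CPM in contralateral microglia. The rise was present in each pair, with the 24 h WT ipsilateral library far above the others (log2 fold change 0.77, SE 0.18, adjusted p = 0.0132).

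Of the 3 members that are no carriers, the scaffold protein Slc9a3r1 (NHERF1) rose by 0.42 and the other two did not pass. Over all 152 members, the summed share of microglial UMIs was 0.639% to 0.6945% in ipsilateral libraries and 0.703% to 0.751% in contralateral libraries, without overlap. Among 24 tested carriers that bear no Slc symbol, 4 rose and 5 fell. Sfxn5 rose by 0.67 and Flvcr1, a choline and heme carrier, by 0.51, and Slco2b1 fell by 0.74 on the log2 scale. Slco1a4, an organic anion carrier of brain endothelium, fell by 2.07 (SE 0.42, adjusted p = 0.00385, edgeR), but on only 0 to 49 UMIs per library. Of 4 accessory proteins of carriers 1 passed: Emb (embigin), a chaperone of monocarboxylate carriers, rose by 0.95 (SE 0.23, adjusted p = 0.0128, edgeR).

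With the 4 WT libraries alone, 10 members passed in the same test against 5.58% of 13217 genes (3.3% higher and 2.28% lower): Slc1a5, Slc39a14, Slc43a3 and Slc6a8 were higher, and Slc1a3, Slc46a3, Slc44a2, Slc22a17, Slc12a2 and Slc29a3 lower. Slc35e4 (adjusted p = 0.0512), Slc9a9 (0.0574), Slc16a7 (0.0626) and Slc2a6 (0.0886) did not pass in that smaller fit in edgeR. That WT fit held 1 library for each hemisphere and time, all of them among the 8 that gave the 72 calls. Its calls are therefore not replicated or separate evidence. Leaving out 1 library of the 8 ended 26 of the 72 calls in at least 1 case. Among the members named above these were Slc7a1, Slc36a1, Slc13a3, Slc39a6, Slc39a11, Slc30a4, Slc39a9, Slc37a2, Slc37a4, Slc45a4, Slc25a4, Slc29a1 and Slc12a4, and Slc37a2 lost its call without any 1 of the 8.

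In monocytes and macrophages, 150 members passed the filter on low counts and 1 was called between hemispheres, where 0.202% of 10911 genes were called (0.183% higher and 0.0183% lower). That member was Slc25a33, with 63.7, 68.2, 43.85 and 44.5 CPM in ipsilateral cells, against 18.8, 30.7, 23.3 and 21.9 CPM in contralateral cells. The ipsilateral libraries were all above the contralateral ones (log2 fold change 1.26, SE 0.17, adjusted p = 0.0497, edgeR's quasi-likelihood test). The call was lost with the hemisphere pairs as a block (adjusted p = 0.0519), and leaving out any of 7 of the 8 libraries ended it as well, with adjusted p between 0.0574 and 0.246. Next came Slc27a4, a fatty acid carrier (log2 difference 0.73, SE 0.14, adjusted p = 0.0976), and Slc12a9 (-0.73, SE 0.14, adjusted p = 0.102), neither of which passed.

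Some microglial changes had a like sign in monocytes and macrophages without passing. Slc16a3 had 231, 226, 407 and 317.5 CPM in ipsilateral cells, against 131, 169, 163 and 151 CPM in contralateral cells, with no overlap and a log2 difference of 0.96 (SE 0.21, adjusted p = 0.128, edgeR). Slc39a14 had a log2 difference of 0.50 (adjusted p = 0.362), Slc20a1 of 0.59 (adjusted p = 0.149) and Slc1a5 of 0.22 (adjusted p = 0.522). Neutrophil markers in this class summed to 754.1 to 4988 CPM ipsilaterally and 972.3 to 9374 CPM contralaterally, and their part was not tested.

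In neutrophils, 119 members passed the filter and none was called between hemispheres by edgeR, where 0% of 8798 genes were called. There were 16 members at an unadjusted p under 0.05, and DESeq2 called 1. Here and below, the share of all genes at an unadjusted p under 0.05 or called by DESeq2 is not given. Such counts of members therefore cannot be set against the shares of genes called by edgeR. Smallest in p was Slc38a2, or SNAT2, a sodium-coupled carrier of neutral amino acids. It had 140.4, 263, 162 and 177 CPM in ipsilateral neutrophils, against 100.4, 109, 87.55 and 74.8 CPM in contralateral neutrophils. The groups did not overlap, but the adjusted p was 0.103 (log2 difference 0.94, SE 0.21). Slc39a11 (-1.63, SE 0.52, adjusted p = 0.24) and Slc35f5 (1.21, SE 0.39, adjusted p = 0.247) followed.

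The second comparison set 48 h against 24 h after occlusion. In microglia 16 members were called, 3 higher and 13 lower at 48 h, where 12.1% of 13699 genes (6.93% higher and 5.15% lower) were called in edgeR's quasi-likelihood test. The share of carriers was close to that of all genes in total only. By direction, more called members fell than rose, while more called genes rose than fell. The median log2 fold change was -0.09 over members and -0.03 over all genes. The balance was not tested. All 16 had one sign in 4 of 4 pairs of times, which is in part built in because the same libraries gave the calls. The rises were larger than the falls.

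Slc43a3 had 21.45 and 29.65 CPM in ipsilateral and 11.5 and 14.2 CPM in contralateral microglia at 48 h, against 3.32 and 6.49 CPM and 3.095 and 2.81 CPM at 24 h, the library labelled Prdx1-/- standing before the WT library each time. Every 48 h library was above every 24 h library (log2 fold change 2.19, SE 0.16, adjusted p = 2.2e-05, edgeR). Slc2a6 had 25.4 and 22.9 CPM in ipsilateral and 16.1 and 17.6 CPM in contralateral microglia at 48 h, against 7.80 and 7.13 CPM and 3.94 and 3.75 CPM at 24 h. Here too the times did not overlap (log2 fold change 1.86, SE 0.13, adjusted p = 1.84e-05). Slc25a10, which exchanges dicarboxylates such as malate and succinate for phosphate, had 18.5 and 21.8 CPM in ipsilateral and 15.2 and 15.2 CPM in contralateral microglia at 48 h, against 9.64 and 12.2 CPM and 8.94 and 10.3 CPM at 24 h. It did not overlap between times (log2 fold change 0.72, SE 0.09, adjusted p = 0.00073). These 3 were called whichever library was left out.

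Other cell classes also held Slc2a6, at 35.2 to 102 CPM in neutrophils, while Slc43a3 stood at 0 to 10.0 CPM in neutrophils and 0.80 to 11.5 CPM in monocytes and macrophages.

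Among the 13 members lower at 48 h were Slc39a7, the zinc carrier of the endoplasmic reticulum, Slc39a10, a zinc importer, Slc52a2, a riboflavin carrier, Slc37a4 and the orphan Slc10a3. Slc39a7 had 102 and 96.3 CPM in ipsilateral and 114 and 111 CPM in contralateral microglia at 48 h, against 155 and 154 CPM and 127 and 127 CPM at 24 h. All 48 h values were below all 24 h values (log2 fold change -0.45, SE 0.11, adjusted p = 0.0264, edgeR). Slc52a2 had 18.75 and 14.9 CPM in ipsilateral and 25.3 and 21.3 CPM in contralateral microglia at 48 h, against 32.0 and 30.5 CPM and 26.6 and 26.7 CPM at 24 h. It was lower at 48 h in each library as well (log2 fold change -0.56, SE 0.15, adjusted p = 0.043).

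The others had log2 fold changes of -0.52 for Slc39a10, -0.45 for Slc10a3 and -0.38 for Slc37a4. Of the 16 calls, the 13 falls were each ended by leaving out at least 1 library. Leaving out any 1 ipsilateral library ended the call of Slc52a2, at adjusted p between 0.0781 and 0.124 in edgeR. Single leave-outs also took Slc39a7 to between 0.0591 and 0.0947, Slc10a3 to between 0.0536 and 0.0666, Slc37a4 to between 0.0572 and 0.0863 and Slc39a10 as high as 0.121.

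**Figure D3:**
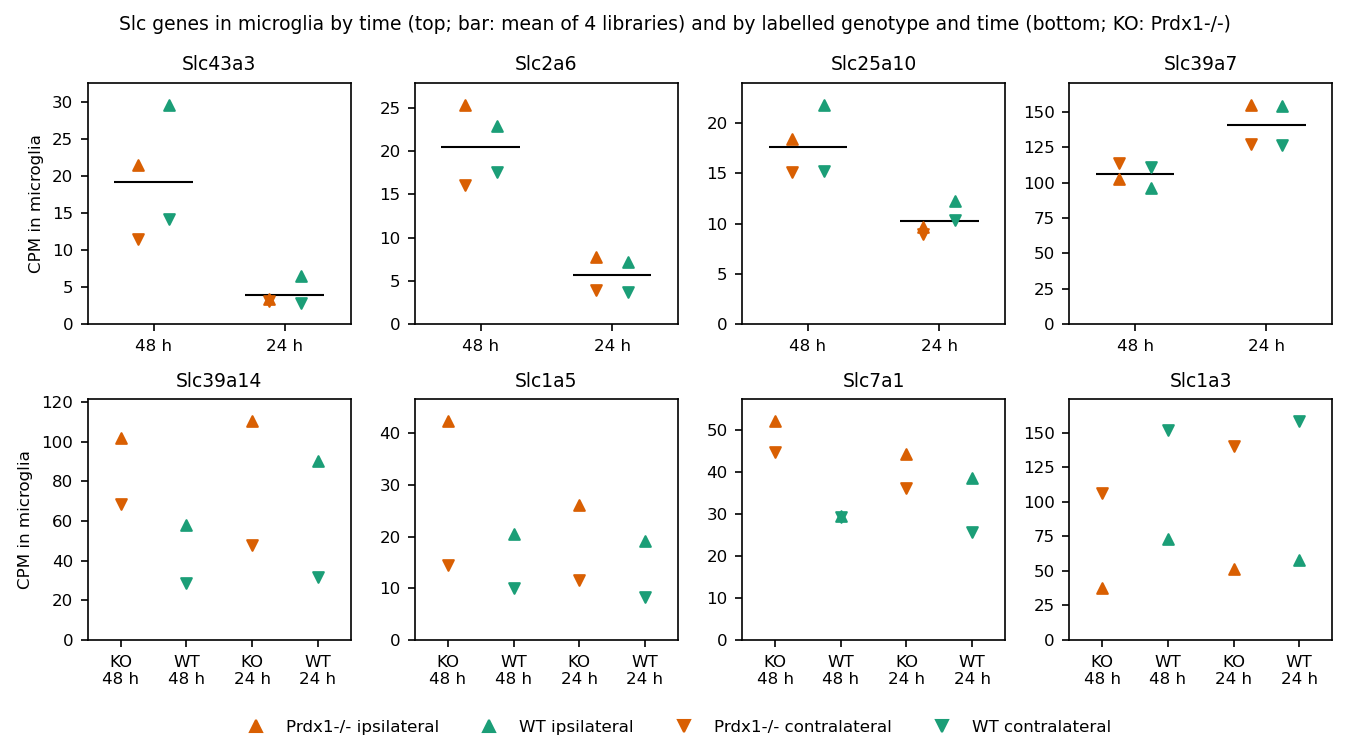
CPM in microglia, one point per library, with upward triangles for ipsilateral and downward triangles for contralateral libraries. The upper panels set 48 h on the left of 24 h and show Slc43a3 and Slc2a6 above their 24 h levels in every library, and the lower panels set libraries labelled Prdx1-/- on the left of WT at each time.

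No member's time difference was shown to depend on the hemisphere: the interaction of hemisphere and time called 0 of 152 members in microglia, where edgeR called 0.102% of all genes (0.0438% higher and 0.0584% lower), with 27 members at an unadjusted p under 0.05 and 2 called by DESeq2. Its smallest p belonged to Slc52a2 (interaction -0.77, SE 0.14, adjusted p = 0.0787), then Slc39a7 (-0.54, adjusted p = 0.111) and Slc35f6 (-0.59, adjusted p = 0.123). Within the 4 ipsilateral libraries alone 26 members passed, 7 higher and 19 lower, where 16.8% of 12102 genes did (9.57% higher and 7.24% lower). Slc5a3, the sodium and myo-inositol carrier that answers osmotic stress, was among them. It had 55.9 and 28.02 CPM at 48 h in ipsilateral microglia, against 16.5 and 10.6 CPM at 24 h (log2 fold change 1.54, SE 0.12, adjusted p = 6.77e-07, edgeR). In contralateral microglia its values were 7.12 and 11.3 CPM at 48 h and 9.61 and 25.0 CPM at 24 h, so the direction was not shared there. Slc36a1 rose by 0.64 and Slc20a1 by 0.49 in the same ipsilateral fit. That fit held 1 library for each genotype label and time, so its small p-values are not replicated evidence.

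In monocytes and macrophages no member was called for time by edgeR, where 0.0917% of genes were (0.0733% higher and 0.0183% lower), with 26 members at an unadjusted p under 0.05 and 8 called by DESeq2. Slc30a1 came closest, with 18.6 and 22.1 CPM in ipsilateral and 15.0 and 17.1 CPM in contralateral cells at 48 h, against 10.6 and 10.15 CPM and 7.62 and 8.63 CPM at 24 h. The times did not overlap (log2 difference 0.89, SE 0.14, adjusted p = 0.0707). Slc43a2, the neutral amino acid carrier LAT4, had 125 and 148 CPM in ipsilateral and 132.5 and 117 CPM in contralateral cells at 48 h, against 77.5 and 79.2 CPM and 70.2 and 59.9 CPM at 24 h. It did not overlap either (log2 difference 0.80, SE 0.14, adjusted p = 0.096), and the fatty acid carrier Slc27a1 had a log2 difference of 1.005 (adjusted p = 0.0988). The interaction with hemisphere called none in this class by edgeR or DESeq2, where edgeR called 0% of genes. An unadjusted p under 0.05 was found for 16 members. Its smallest adjusted p was 0.267, for Slc25a10 (1.996), followed by 0.326 for both Slc39a14 (-0.96) and the S-adenosylmethionine carrier Slc25a26 (1.84).

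In neutrophils no member was called for time by edgeR or DESeq2, where edgeR called 0.0568% of genes (0.0114% higher and 0.0455% lower), and 13 had an unadjusted p under 0.05. Slc16a3 had 450.4 and 751 CPM in ipsilateral and 405 and 649 CPM in contralateral neutrophils at 48 h, against 1172 and 1077 CPM and 752 and 512 CPM at 24 h. Within the ipsilateral hemisphere both 48 h values were lower, but the contralateral values overlap (log2 difference -0.84, SE 0.29, adjusted p = 0.51). Slc35c1, the Golgi GDP-fucose carrier (1.45), and Slc30a9 (-0.68) had the same adjusted p of 0.51.

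The third comparison set libraries labelled Prdx1-/- against WT. Over all 8 libraries edgeR called no member in microglia, monocytes and macrophages, or neutrophils, and 0% of all genes in each. Unadjusted p was under 0.05 for 27, 1 and 0 members in these classes, and DESeq2 called 4, 0 and 0. The shares of all genes at these limits are not given, so the counts cannot be set against the 0% of edgeR. In microglia, Slc1a5 was higher in 4 of 4 pairs (log2 difference 0.63, SE 0.10, adjusted p = 0.0955), as was Slc7a1 (0.53, SE 0.10, adjusted p = 0.131), and Slc37a2 was lower in 4 of 4 (-0.32, SE 0.06, adjusted p = 0.115). In monocytes and macrophages Slc15a2, a peptide carrier, had the smallest p (0.53, adjusted p = 1), and in neutrophils Slc39a14 (-1.05, adjusted p = 1).

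The 48 h libraries, in which Prdx1 levels matched the label, were also fitted alone. That fit had 4 libraries, with 1 library for each genotype label and hemisphere, and hemisphere as a covariate. So few libraries say little about the spread between libraries, and the small p-values of that fit are not replicated evidence. In microglia 19 of 151 members passed in edgeR, 14 higher and 5 lower, where 6.61% of 12566 genes passed (2.88% higher and 3.73% lower). Slc39a14 had 102 CPM in the ipsilateral and 68.8 CPM in the contralateral library labelled Prdx1-/-, against 57.8 and 28.8 CPM in WT. It was higher in both hemispheres (log2 fold change 0.997, SE 0.09, adjusted p = 5.91e-12). At 24 h the libraries labelled Prdx1-/- had 110.5 CPM ipsilaterally and 47.7 CPM contralaterally, against 90.15 and 31.8 CPM in WT. The direction was the same there, with a smaller gap.

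Slc1a5 had 42.4 CPM in the ipsilateral and 14.55 CPM in the contralateral library labelled Prdx1-/- at 48 h, against 20.55 and 10.1 CPM in WT (log2 fold change 0.72, SE 0.13, adjusted p = 0.00011, edgeR). Slc7a1 had 52.2 and 44.9 CPM in the libraries labelled Prdx1-/-, against 29.5 and 29.3 CPM in WT (0.65, SE 0.11, adjusted p = 3.62e-06). Both amino acid carriers were higher in each hemisphere. Slc1a3 went the other way, with 37.6 CPM in the ipsilateral and 106 CPM in the contralateral library labelled Prdx1-/-, against 73.1 and 152 CPM in WT (-0.75, SE 0.10, adjusted p = 2.4e-08). The other members that fell were Slc16a7 (-0.52), Slc43a3 (-0.43), Slc37a2 (-0.33) and Slc7a8 (-0.30). With 1 library per cell of this design, a difference between genotypes and a difference between libraries cannot be told apart.

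The last comparisons set the classes against each other within the 4 ipsilateral libraries. These classes differ in total RNA content and composition, and the scaling of libraries matters here, so levels in this section are CPM after trimmed-mean (TMM) scaling. Since the members were picked by UMI sums that microglia dominate, the balance of higher and lower calls in a class is shaped by the choice. By edgeR's quasi-likelihood test, neutrophils against microglia had 40 members higher and 91 lower of 152, where 76% of 12634 genes were called (35% higher and 41% lower). Neutrophils against monocytes and macrophages had 39 higher and 74 lower (65.3% of genes called, 31.5% higher and 33.8% lower), and monocytes and macrophages against microglia 31 higher and 57 lower (60.6% of genes called, 28.8% higher and 31.7% lower). Scaling to total counts, an alternative chosen after the data were seen, moved these splits to 16 higher and 123 lower, 20 and 99, and 13 and 98, since it shifted the median of all genes to -1.34, -0.68 and -0.61.

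Slc2a3, Slc22a15, Slc28a2 and Slc16a3 were higher in neutrophils than in microglia, while more members of each of their substrate groups were lower there than higher. Slc2a3 (GLUT3), a high-affinity glucose carrier, had 214.5, 114, 173 and 199 scaled CPM in neutrophils, against 2.26, 1.12, 1.42 and 1.59 in monocytes and macrophages and 5.925, 4.16, 5.13 and 3.92 in microglia. Neutrophils were far above both in each library, with log2 changes of 6.77 (SE 0.19, adjusted p = 2.29e-08) over monocytes and macrophages and 5.19 (SE 0.17, adjusted p = 1.48e-08, edgeR) over microglia. Slc22a15, an organic zwitterion carrier, had 129.9, 172, 184 and 254 scaled CPM in neutrophils, against 14.2, 9.58, 15.05 and 18.75 in monocytes and macrophages and 0.884, 0.960, 0.513 and 0.283 in microglia. Its levels were ordered neutrophil, monocyte and macrophage, microglia in every library, with a log2 change of 8.41 (SE 0.41, adjusted p = 4.33e-08) between neutrophils and microglia.

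Slc28a2, a concentrative nucleoside carrier, had 30.55, 38.0, 51.8 and 62.9 scaled CPM in neutrophils, against 0.265, 0.240, 0.171 and 0.0942 in microglia. Each microglial value rests on 3 to 6 UMIs, and the log2 fold change was 8.19 (SE 0.36, adjusted p = 2.58e-08, edgeR). Without its neutrophil UMIs Slc28a2 would fall under the limit of 2000 UMIs, so its excess there is in part built in by the choice. Slc16a3 had 625, 935, 2009 and 1918 scaled CPM in neutrophils, against 206, 217.5, 419 and 323 in monocytes and macrophages and 64.65, 50.5, 70.9 and 56.2 in microglia. The 3 classes did not overlap. Neutrophils exceeded microglia by a log2 change of 4.36 (SE 0.28, adjusted p = 2.03e-07), and monocytes and macrophages exceeded microglia by 2.18 (SE 0.26, adjusted p = 3.63e-05).

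Slc25a24 had 66.7, 27.85, 75.1 and 60.7 scaled CPM in neutrophils, against 30.4, 27.6, 30.9 and 30.45 in monocytes and macrophages and 0.7075, 1.12, 0.541 and 0.791 in microglia. Microglia were far below both classes, while neutrophils and monocytes were about level in the 48 h WT library. Slc35a5, a Golgi nucleotide sugar carrier, and Slc27a4 were higher in neutrophils than in monocytes and macrophages by log2 change of 2.90 (SE 0.15) and 2.74 (SE 0.21). Slc2a6 was higher there too, by 2.82 (SE 0.52, adjusted p = 0.000782, edgeR).

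Slc46a1, Slc19a1, Slc39a8, Slc7a8 and Slc29a1 were lower in neutrophils than in microglia. Without microglial UMIs, Slc46a1, Slc19a1 and Slc39a8 would fall under the limit of 2000 UMIs. Their low levels in other classes are thus in part built in by the choice of members. Slc46a1, the proton-coupled folate carrier, had 0.324, 0.281, 0.264 and 0.642 scaled CPM in neutrophils, against 21.7, 26.2, 24.3 and 23.5 in microglia. The log2 fold change was -6.00 (SE 0.26, adjusted p = 2.3e-08, edgeR). The reduced folate carrier Slc19a1 also was lower, by a log2 fold change of -5.28, and the zinc importer Slc39a8 (ZIP8) by -5.04. Each neutrophil value rests on 1 to 3 UMIs for Slc46a1, 1 to 4 for Slc19a1 and 1 to 8 for Slc39a8. Slc7a8 (LAT2), a neutral amino acid exchanger, had 3.67, 7.31, 3.70 and 5.78 scaled CPM in neutrophils, against 82.4, 103, 84.5 and 60.1 in monocytes and macrophages and 97.55, 129, 115 and 102 in microglia. Neutrophils were below both, with log2 changes of -4.06 (SE 0.20) and -4.50 (SE 0.20). Slc29a1 (ENT1) was lower than in microglia by -4.15.

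Slc39a14 had 5.94, 19.4, 5.82 and 6.42 scaled CPM in neutrophils, against 64.9, 63.4, 66.0 and 71.1 in monocytes and macrophages (log2 fold change -2.89, SE 0.38, adjusted p = 7.31e-05, edgeR). Slc7a7 (-2.69), Slc37a2 (-2.40) and Slc25a4 (-2.22) were likewise lower in neutrophils than in monocytes and macrophages.

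Among the members named by rule, Slc1a3 had the largest difference between monocytes or macrophages and microglia. It had 0.181, 0.179, 0.732 and 0.568 scaled CPM in monocytes and macrophages, against 24.7, 50.1, 36.7 and 38.8 in microglia. The log2 fold change was -6.73 (SE 0.39, adjusted p = 3.35e-07, edgeR). Slc46a1 (-5.55), Slc39a8 (-4.28), Slc12a2 (-3.28) and Slc5a3 (-2.47) were also lower in monocytes and macrophages than in microglia. Slc1a3, Slc46a1, Slc39a8 and Slc5a3 would fall under the limit of 2000 UMIs without their microglial UMIs. Their differences here are thus in part built in by the choice of members. Higher were Slc25a24 (5.32, SE 0.32), the carnitine and acylcarnitine carrier Slc25a20 (1.67, SE 0.16), Slc9a3r1 (1.31, SE 0.19) and the mitochondrial NAD carrier Slc25a51 (1.19, SE 0.12).

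**Figure D4:**
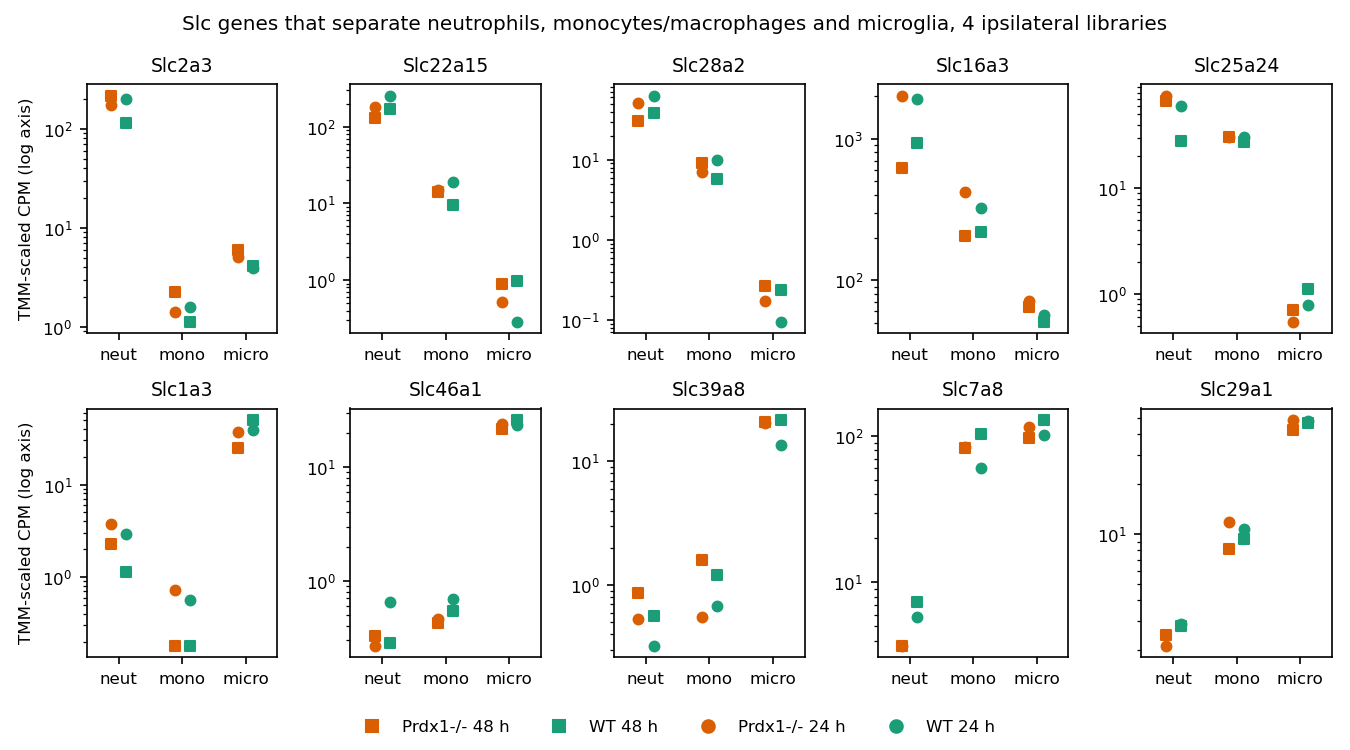
TMM-scaled CPM of 10 members in neutrophils, monocytes and macrophages, and microglia of the 4 ipsilateral libraries, on a log axis, one point per library. Slc2a3, Slc22a15 and Slc16a3 are highest in neutrophils, and Slc1a3, Slc46a1, Slc39a8 and Slc29a1 are highest in microglia. Slc1a3, Slc46a1 and Slc39a8 are members only through their microglial UMIs.

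By group, neutrophils against microglia had 2 of 19 zinc, copper and iron carriers higher and 15 lower, 4 of 21 amino acid carriers higher and 15 lower, and 5 of 22 nucleoside and nucleotide sugar carriers higher and 14 lower. Mitochondrial carriers were more even, with 12 of 31 higher and 15 lower. Ion carriers had 6 higher and 11 lower, sugar carriers 3 and 6, monocarboxylate and organic ion carriers 2 and 8, and lipid, vitamin, heme and cofactor carriers 3 and 7. Carriers without an Slc symbol had 10 higher and 10 lower of 22. The median log2 fold change was -0.89 over members and -0.19 over all genes.

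Members were also read in the smaller classes, as CPM over the libraries with at least 20 cells of the class, with no test, among the classes that had 2 or more such libraries. B cells (7 libraries) were highest in Slc38a9 at 71.8 CPM (next microglia at 45.1) and in Slc1a5 at 91.6 CPM (next T and NK cells at 58.3). T and NK cells were highest in Slc20a1 at 52.4 CPM (next microglia at 39.6). Cells with erythrocyte markers (4 libraries) were highest in Slc25a37, which feeds iron to heme synthesis, at 198.4 CPM (next B cells at 71.9), and also in Slc25a39 at 90.65 CPM and Slc48a1 at 82.6 CPM. That class held microglial markers at 711 to 4751 CPM and neutrophil markers at 2821 to 17120 CPM, and their part was not tested. Dendritic cells (2 libraries) had 98.6 CPM of Slc25a20 (next neutrophils at 51.5).

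**Figure D5:**
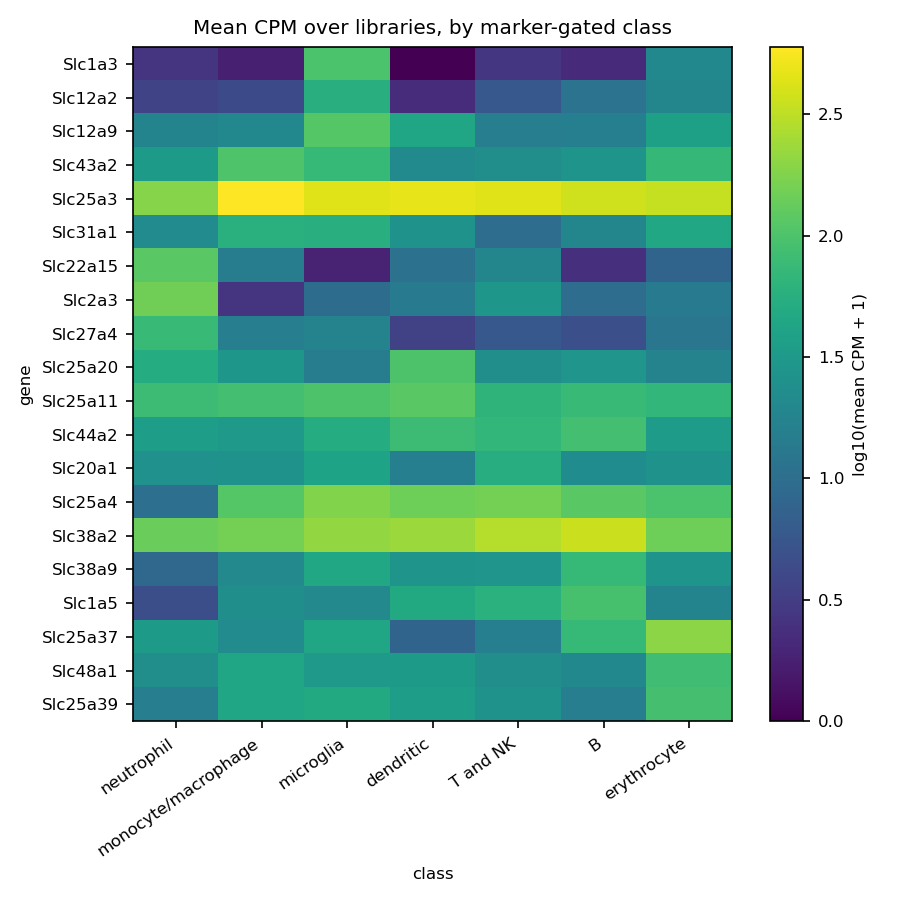
Mean CPM of members across 7 cell classes, shown as log10 of the mean CPM plus 1. Slc1a3 is brightest in microglia at 97.2 CPM, Slc22a15 in neutrophils at 114.6 CPM, Slc1a5 in B cells at 91.6 CPM and Slc25a37 in erythrocyte-marked cells at 198.4 CPM. Slc1a3 is a member only through its microglial UMIs.

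Of the members with the highest UMI sums, the adenine nucleotide exchanger Slc25a5 averaged 158 ± 33.4 CPM in neutrophils, 564 ± 89.3 in monocytes and macrophages and 579 ± 39.9 in microglia (SD, n = 8 libraries each). Neutrophils were below the other two beyond the spread, which did not separate monocytes and macrophages and microglia. Slc15a3 averaged 167 ± 76.6 CPM in neutrophils, 174 ± 40.6 in monocytes and macrophages and 317 ± 45.9 in microglia, but this order depends on scaling, since the TMM-scaled ipsilateral contrast put neutrophils above microglia (log2 fold change 0.66, SE 0.22, adjusted p = 0.0191, edgeR) and total-count scaling put them below (-0.51, adjusted p = 0.0271). With all 8 libraries the TMM-scaled difference was 0.11 (adjusted p = 0.653), and without the 24 h WT or the 24 h library labelled Prdx1-/- the call was lost (adjusted p = 0.112 and 0.114). Slc16a3 had the reverse order, at 721 ± 281 CPM in neutrophils, 225 ± 94.9 in monocytes and macrophages and 75.6 ± 17.1 in microglia. These averages are shares of each class's own UMIs.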

How the data were processed

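The deposited files hold raw UMI counts per gene and cell for 8 libraries. Per the submitters' processing notes the authors used Cell Ranger and Seurat with the mm10 build (versions not given in the sources used here), and per the labels' protocols libraries were made with the 10x 3′ V2 kit. The counts covered 39945 cells and 436780956 UMIs. Cells with over 10% mitochondrial UMIs or under 200 genes (337) were left out, as were 1583 (4.0%) that scored highest against simulated doublets, leaving 38025. A cell joined a class when it held at least 3 of its markers and the class score was at least 1.5 times the next, which placed 35798 cells (94.1%). Of cells near that limit, 570 had a ratio of 1.25 to 1.5 and 567 one of 1.5 to 1.75.

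UMIs were summed per class and library with at least 20 cells, then tested with edgeR 4.0.16 (quasi-likelihood test, TMM scaling, filterByExpr, additive terms for genotype label, hemisphere and time, Benjamini-Hochberg adjustment over all genes tested) in R 4.3.3, with Python 3.11.15 for the rest. Class contrasts used the ipsilateral libraries with library as a term. TMM factors in that fit ran 0.562 to 0.804 in neutrophils, 0.973 to 1.126 in monocytes and macrophages and 1.406 to 1.527 in microglia. DESeq2 1.42.0 was an alternative, with other scaling, filters, gates, doublet handling and each library left out. The fits were tested on simulated data first.

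Members and lists were chosen with earlier results of these data known. Genes named were the members with most UMIs per group, up to 5 per direction and contrast with the largest fold change at a mean of at least 10 CPM (or the 3 smallest p), those beside the UMI threshold, and the leaders of each smaller class. Others are examples of their group, chosen after their values were seen. The class heatmap shows 20 such leaders, and 1 other gene is not reported here.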

Additional observations from a re-analysis of the deposited data

Results flagged for a closer look

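Between hemispheres, 9 of the members tested in microglia moved one way in all 4 pairs of libraries there and the opposite way in all 4 pairs in another class. The share of all genes that did so is not given, so the count is not read as particular to carriers. The difference between classes was not tested in any of them, none passed in edgeR in the second class, and Slc38a2, Slc16a6, Slc26a2 and Slc30a9 did not pass in microglia either. Slc25a37 (mitoferrin 1) had a log2 difference of -0.25 in microglia, against 0.24 in monocytes and macrophages and 0.36 in neutrophils. Its microglial values were 34.5 to 41.4 CPM ipsilaterally and 45.6 to 54.55 CPM contralaterally, while neutrophils had 31.8 to 45.8 CPM ipsilaterally and 23.9 to 31.25 CPM contralaterally. Slc38a2 (SNAT2) had -0.14 in microglia, against 0.19 in monocytes and macrophages and 0.94 in neutrophils.

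Slc48a1 (HRG1) had 0.77 in microglia and -0.78 in neutrophils, with neutrophil values of 9.02 to 23.4 CPM ipsilaterally and 24.65 to 31.8 CPM contralaterally. Slc45a4 had -0.19 in microglia and 0.67 in neutrophils, with neutrophil values of 8.84 to 18.5 CPM ipsilaterally and 5.28 to 10.0 CPM contralaterally. Slc36a1 had -0.48 in microglia and 0.53 in neutrophils, Slc26a2, a sulfate carrier, -0.23 and 0.87, and Slc16a6 -0.0636 and 0.54. In monocytes and macrophages, Slc8a1, the sodium and calcium exchanger NCX1, had 0.41, against -0.47 in microglia, and Slc30a9 had 0.41, against -0.15 in microglia. The neutrophil levels of Slc36a1 were at most 8.14 CPM and the monocyte levels of Slc8a1 at most 8.25 CPM. The signs in neutrophils rest on few UMIs in each contralateral library. These were 8 to 45 for Slc48a1, 2 to 18 for Slc45a4, 1 to 8 for Slc36a1 and 2 to 10 for Slc26a2. Slc25a37 had 6 to 56, Slc16a6 16 to 109 and Slc38a2 22 to 180.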

How the results depend on the processing

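Counts are of members at an adjusted p under 0.05. For hemisphere in microglia, 72 members passed, and 10 with WT libraries alone. Leaving out 1 library gave 54 to 75. For genotype in microglia (0), DESeq2 gave 4, no filter 1 and the 48 h libraries alone 19. For time in microglia (16), a limit of 5% mitochondrial UMIs gave 9, ipsilateral libraries alone 26 and single leave-outs 4 to 16, the 4 without the ipsilateral 24 h library labelled Prdx1-/-. For hemisphere in monocytes and macrophages (1), DESeq2 gave 7, library pairs as a block 0, WT libraries 0 and leave-outs 0 to 1. For time in that class (0), DESeq2 gave 8, ipsilateral libraries 3 and leave-outs 0 to 5, with 5 without the ipsilateral 48 h library labelled Prdx1-/- and 3 without the contralateral 24 h WT library. For hemisphere in neutrophils (0), DESeq2 gave 1, no filter 4, WT libraries 4 and leave-outs 0 to 4, the 4 without the ipsilateral 48 h library labelled Prdx1-/-. For time in neutrophils (0), leave-outs gave 0 to 4, the 4 without the contralateral 24 h WT library. For hemisphere by time, microglia (0) gave 2 with DESeq2, 2 with no filter and 0 to 2 in leave-outs, and monocytes and macrophages (0) gave 0 to 7, the 7 without the contralateral 24 h library labelled Prdx1-/-. The cause of these moves was not tested, beyond the fewer libraries of the subsets.

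Class contrasts ranged over 118 to 129, 102 to 113 and 66 to 86 members in leave-outs (131, 113 and 88 with all libraries), and 139, 119 and 111 with total-count scaling. Of the members followed through the alternatives, 1 reversed: Slc15a3 in neutrophils against microglia, 0.66 with TMM and -0.51 with total-count scaling, whose shift of all genes is given with those contrasts. The labels give no replicate numbers. A paired fit for hemisphere took each genotype and time combination as a block and ended 4 calls of the members followed, in edgeR: Slc25a33 in monocytes and macrophages (adjusted p = 0.0519) and, in microglia, Slc37a2 (0.0511), Slc39a11 (0.0514) and Slc45a4 (0.0587). Depth limits the members most in neutrophils, where 119 could be tested and a library held as few as 43 cells.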
